A study of Mus musculus with 2 samples.

Results

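The 9 genes described here carry the prolactin signal from the cell surface to the nucleus and back: the receptor Prlr, its kinase Jak2, the transcription factors Stat5a and Stat5b, the feedback inhibitors Cish, Socs1 and Socs2, the glucocorticoid receptor Nr3c1 and the kinase Akt1. They were chosen by name, and all 9 were found among the 25865 features with a gene symbol. Single-cell RNA sequencing of mouse mammary epithelial cells gave their levels, each transcript being tagged near its 3' end and counted as 1 unique molecular identifier (UMI). One library, Ehf_KO, came from mice without Ehf, an epithelial transcription factor of the ETS family, and the other, WT, from wild type mice. Both were taken on day 18.5 of pregnancy, each library pooled 2 females, and cells positive for Ter119, CD31 or CD45 had been sorted out. The sources used here do not give the background strain, the deleted part of Ehf or the tissues in which it is deleted. With 1 library per genotype no difference below has a replicate check, no test was run, and every 95% interval covers counting error only.

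Prolactin and the placental lactogens bind Prlr on mammary epithelial cells, JAK2 bound to the receptor phosphorylates STAT5, and STAT5 enters the nucleus and switches on milk protein genes. STAT5 also switches on Cish and the Socs genes, whose products dampen the receptor's signal, so that their transcripts are often read as marks of recent STAT5 activity. The glucocorticoid receptor works with STAT5 at milk protein genes, and AKT1 acts downstream of insulin and growth factor receptors. Only transcripts were measured here, and neither phosphorylation nor protein was.

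STAT5 binds DNA at the palindrome TTCNNNGAA, which reads the same on both strands, and promoters of the genes were searched for it. The promoters are from RefSeq on GRCm38.p6 and run from 250 bases before to 50 bases after a transcription start. A promoter was found for 7 of the 9 genes, with 12 starts in all, and 2 of these promoters held the motif. None was found for Socs2 or Nr3c1, so these 2 genes were not searched. Over all 32851 promoters of the table, 8.3% held at least 1 motif and 0.457% at least 2. The 2 promoters are shown because one belongs to the feedback gene Cish and the other to the receptor, with the motifs in capitals. The first is chr9:107296409-107296708 on the plus strand, where TTCCTGGAA begins at base 1 of the transcript and TTCTTGGAA at base 12. The second is chr15:10223656-10223955 on the plus strand, 1 of 3 Prlr starts, where TTCTAGGAA begins 110 bases before the start. A match describes the letters only, and binding was not measured.
Cish: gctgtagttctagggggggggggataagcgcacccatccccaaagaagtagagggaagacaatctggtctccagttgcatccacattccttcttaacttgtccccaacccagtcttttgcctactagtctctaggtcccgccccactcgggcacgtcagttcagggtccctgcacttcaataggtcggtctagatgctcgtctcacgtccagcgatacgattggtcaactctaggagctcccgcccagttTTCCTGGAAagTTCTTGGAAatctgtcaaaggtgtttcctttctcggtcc
Prlr: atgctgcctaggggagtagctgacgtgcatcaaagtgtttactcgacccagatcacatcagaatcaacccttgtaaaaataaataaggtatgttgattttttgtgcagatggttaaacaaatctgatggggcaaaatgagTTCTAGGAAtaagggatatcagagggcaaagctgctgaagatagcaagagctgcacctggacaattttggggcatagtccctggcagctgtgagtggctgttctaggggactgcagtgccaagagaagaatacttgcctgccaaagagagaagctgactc

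The Ehf_KO library held 7275 barcodes and 40066795 UMIs, and the WT library held 11258 barcodes and 48720938 UMIs. The cells kept were 6523 in Ehf_KO and 9089 in WT, with medians of 3894 UMIs in Ehf_KO and 2481 in WT. The 2 libraries shared 15 of their kept barcodes. Clusters were named from marker genes, so each class is only like the cell type it is named for. A luminal secretory class, named for the cells that make milk, held 809 Ehf_KO and 2557 WT cells. Of these, 304 Ehf_KO and 66 WT cells had under 2% of their UMIs from caseins. The others were a hormone-sensing class (145 Ehf_KO and 125 WT cells), a basal class (5508 Ehf_KO and 6229 WT cells) and a small group of non-epithelial cells (61 Ehf_KO and 178 WT cells). Basal markers summed to 29907 CPM in Ehf_KO and 39964 CPM in WT basal cells, against 822 CPM in Ehf_KO and 682 CPM in WT luminal secretory cells. Hormone-sensing markers summed to 6466 CPM in Ehf_KO and 8157 CPM in WT hormone-sensing cells, against 97.0 CPM in Ehf_KO and 118 CPM in WT luminal secretory cells. Luminal secretory markers in hormone-sensing cells were far apart, at 981 CPM in Ehf_KO and 18811 CPM in WT, and their part in the results for that class was not tested. Caseins took 7.86% of luminal secretory UMIs in Ehf_KO and 27.6% in WT, so levels are given as CPM, a gene's counts scaled to a fixed total of UMIs outside 12 milk protein genes. Ehf itself had 1062 UMIs and 89.8 CPM in Ehf_KO luminal secretory cells, against 3347 UMIs and 188 CPM in WT, and a 3' count outside the deleted part checks nothing.

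Prlr marked the hormone-sensing cells far more strongly than the luminal secretory cells. It stood at 1411 CPM in Ehf_KO and 1545 CPM in WT hormone-sensing cells, at 74.0 CPM in Ehf_KO and 124 CPM in WT luminal secretory cells, and at 2.52 CPM in Ehf_KO and 4.32 CPM in WT basal cells. Relative to the median gene, hormone-sensing cells exceeded luminal secretory cells 20.7-fold in Ehf_KO and 11.1-fold in WT. Basal cells were near zero in both libraries. After each cell was thinned to 2000 UMIs outside milk genes, a Prlr UMI was seen in 92.3% of Ehf_KO (86.7 to 96.1%) and 94.3% of WT (88.5 to 97.7%) hormone-sensing cells. In luminal secretory cells the share was 13.1% of 778 cells in Ehf_KO (10.8 to 15.7%) and 21.2% of 2350 cells in WT (19.6 to 22.9%). The basal share was 0.452% in Ehf_KO and 0.699% in WT, and how much of it came from free RNA was not tested. Thinning left out 31 Ehf_KO and 207 WT luminal secretory cells, and without it the shares there were 48.0% in Ehf_KO and 47.8% in WT. Median depths were 10558 UMIs in Ehf_KO and 9008 in WT. Outside milk genes they were further apart, at 9445 in Ehf_KO and 5389 in WT, so the unthinned shares are not at like depth.

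Socs2, which restrains growth hormone and prolactin receptors, followed the same order of classes. Its level was 554 CPM in Ehf_KO and 472 CPM in WT hormone-sensing cells, against 70.8 CPM in Ehf_KO and 38.1 CPM in WT luminal secretory cells and 41.0 CPM in Ehf_KO and 35.2 CPM in WT basal cells. Thinned shares were 56.6% in Ehf_KO and 58.2% in WT hormone-sensing cells, against 9.90% of Ehf_KO and 6.98% of WT luminal secretory cells. The other STAT5 feedback gene, Cish, was spread far more evenly: 94.9 CPM in Ehf_KO and 107 CPM in WT hormone-sensing cells, 58.1 CPM in Ehf_KO and 69.7 CPM in WT luminal secretory cells, and 50.8 CPM in Ehf_KO and 59.8 CPM in WT basal cells. Cish was thus detected in basal cells at a level near that of luminal secretory cells, where Prlr exceeded the basal level 27.8-fold in Ehf_KO and 32.9-fold in WT. Socs1, an inhibitor that acts on JAK kinases, had its highest epithelial level in basal cells, at 47.6 CPM in Ehf_KO and 36.1 CPM in WT. In luminal secretory cells it was at 9.90 CPM in Ehf_KO and 6.11 CPM in WT, 5.08-fold below basal cells in Ehf_KO and 5.12-fold in WT.

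The STAT5 genes had their lowest epithelial level in basal cells. Stat5a stood at 74.3 CPM in Ehf_KO and 76.6 CPM in WT luminal secretory cells, at 60.3 CPM in Ehf_KO and 36.7 CPM in WT hormone-sensing cells and at 17.6 CPM in Ehf_KO and 21.3 CPM in WT basal cells. Stat5b, the neighbouring gene 8627 bases away on chromosome 11, stood at 34.3 CPM in Ehf_KO and 34.1 CPM in WT luminal secretory cells and at 7.41 CPM in Ehf_KO and 9.60 CPM in WT basal cells. Luminal secretory cells exceeded basal cells 3.99-fold in Ehf_KO and 4.15-fold in WT for Stat5a, and 4.39-fold in Ehf_KO and 4.09-fold in WT for Stat5b. Nr3c1 ran the other way from Prlr among luminal cells: hormone-sensing cells held 13.3 CPM in Ehf_KO and 23.3 CPM in WT, against 50.5 CPM in Ehf_KO and 93.9 CPM in WT luminal secretory cells. These hormone-sensing values rest on 15 UMIs in Ehf_KO and 14 in WT. Jak2 had its highest epithelial level in hormone-sensing cells, at 59.4 CPM in Ehf_KO and 28.3 CPM in WT. It was at 17.3 CPM in Ehf_KO and 11.9 CPM in WT luminal secretory cells and at 19.6 CPM in Ehf_KO and 17.1 CPM in WT basal cells. The WT hormone-sensing value rests on 17 UMIs, and its log2 ratio over WT basal cells was 0.69 (-0.12 to 1.39), an interval that included 0. Akt1 was at 84.3 CPM in Ehf_KO and 132 CPM in WT luminal secretory cells, at 77.1 CPM in Ehf_KO and 90.0 CPM in WT hormone-sensing cells and at 59.2 CPM in Ehf_KO and 51.2 CPM in WT basal cells. Outside the epithelium, in 61 Ehf_KO and 178 WT cells, Socs1 was at 144 CPM in Ehf_KO and 90.1 CPM in WT and Nr3c1 at 144 CPM in Ehf_KO and 129 CPM in WT, both above their level in every epithelial class, while Prlr was at 2.12 CPM in Ehf_KO and 9.12 CPM in WT. Stat5a shares exonic sequence with Stat3 on the other strand, Cish with 2 antisense genes, and Prlr with Gm21973 on its own strand. The sources used here do not say whether counting used strand, so reads of these pairs may not be fully apart.

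**Figure D1:**
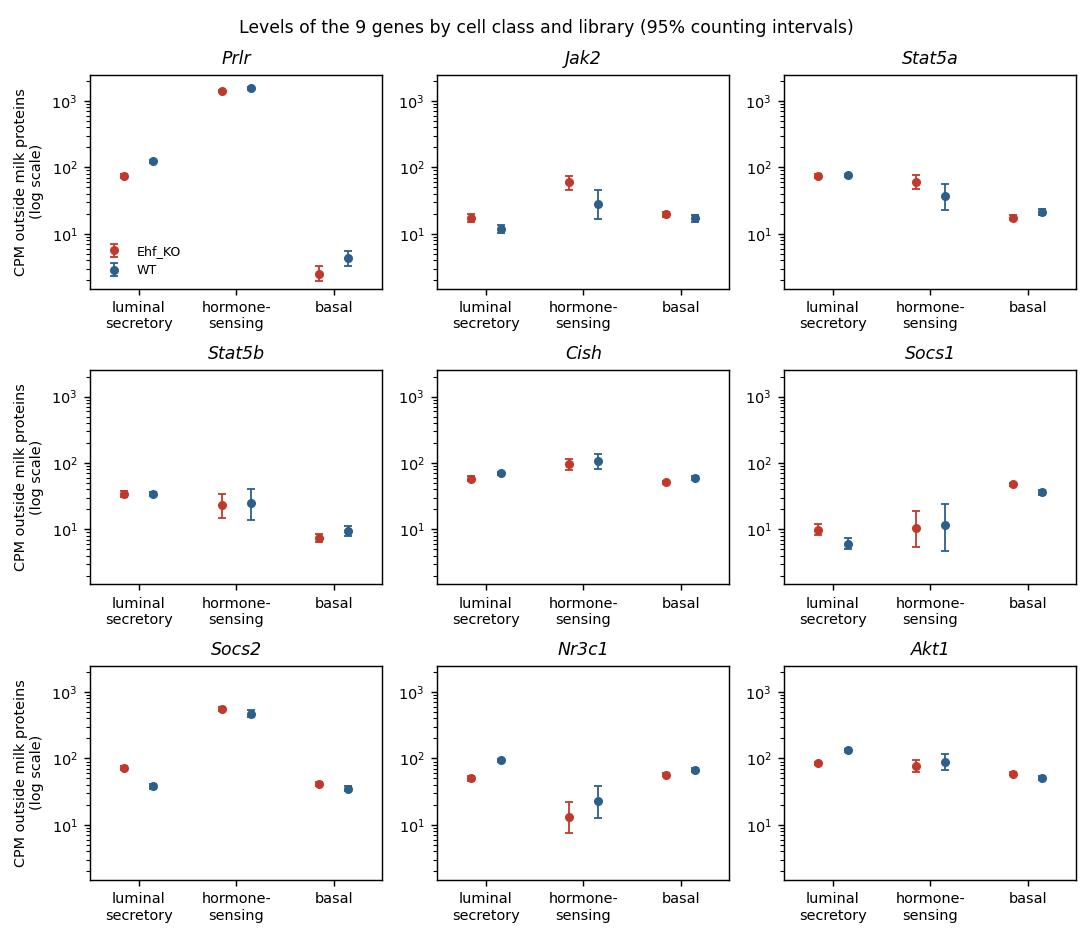
Levels of the 9 genes in luminal secretory, hormone-sensing and basal cells as CPM outside milk protein genes on a log scale, with Ehf_KO (red) left of WT (blue) and bars for 95% counting intervals. Prlr and Socs2 are highest in hormone-sensing cells of both libraries, Socs1 in basal cells, and Stat5a and Stat5b are lowest in basal cells.

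In luminal secretory cells Prlr, Nr3c1 and Akt1 were lower in the Ehf_KO library, while Socs2 was higher by a margin that depends on the processing. Ratios are Ehf_KO over WT relative to the median gene, and a 1.5-fold difference was the rule of size for naming a gene higher or lower. Prlr had 875 UMIs in Ehf_KO and 2203 in WT, a log2 ratio of -1.04 (-1.16 to -0.93). Nr3c1 had 597 UMIs in Ehf_KO and 1675 in WT, a log2 ratio of -1.20 (-1.34 to -1.06). Akt1 had 997 UMIs in Ehf_KO and 2355 in WT, or 84.3 CPM in Ehf_KO and 132 CPM in WT, a log2 ratio of -0.95 (-1.06 to -0.84). Socs2 had 837 UMIs in Ehf_KO and 679 in WT, a log2 ratio of 0.59 (0.44 to 0.74), at the edge of the rule, and it missed the rule under 7 alternatives at 0.40 to 0.58. Of the 9 genes 3 were thus lower, against 17.9% of all 11121 genes with enough counts, and 1 was higher, against 15.1%. The median log2 ratio of the 9 genes was -0.35.

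The remaining 5 genes lay within 1.5-fold. Stat5a was at -0.35 (-0.47 to -0.22), Stat5b at -0.29 (-0.48 to -0.11) and Cish at -0.57 (-0.70 to -0.43), the last just short of the rule. Jak2 was at 0.23 (-0.05 to 0.52) from 204 UMIs in Ehf_KO and 212 in WT, and Socs1 at 0.39 (0.00 to 0.78) from 117 UMIs in Ehf_KO and 109 in WT. The median gene itself stood at 0.30 on CPM outside milk genes and at 0.86 on CPM of all UMIs, and the choice of scale decides some directions. On CPM of all UMIs Prlr was at -0.19, Nr3c1 at -0.34, Akt1 at -0.09 and Socs2 at 1.45, each in the same direction as before with none of the 9 genes lower past 1.5-fold, while Stat5a turned to 0.51, Stat5b to 0.56 and Cish to 0.29. Cycling cells, those with at least 3 UMIs of 8 cell cycle genes, were 44.1% of luminal secretory cells in Ehf_KO and 17.8% in WT. Their part in these results was not tested as a whole, and among cells that were not cycling Prlr was at -1.08, Nr3c1 at -1.23, Akt1 at -1.15 and Socs2 at 0.40, below the rule, where 18.2% of all genes were lower and 15.9% higher.

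The hormone-sensing class, where Prlr and Socs2 are most abundant, showed little difference in either. Prlr was at a log2 ratio of -0.11 (-0.23 to 0.01) from 1591 UMIs in Ehf_KO and 927 in WT, and Socs2 at 0.26 (0.05 to 0.46) from 625 UMIs in Ehf_KO and 283 in WT. The sign for Prlr turned with the choice of cells, to 0.26 under a stricter cell filter and 0.12 with called doublets kept. Jak2 was higher, with 67 UMIs in Ehf_KO and 17 in WT and a log2 ratio of 1.09 (0.31 to 1.95), and Stat5a was at 0.74 (0.03 to 1.51) from 68 UMIs in Ehf_KO and 22 in WT, which fell short of the rule under the stricter filter (0.31) and with doublets kept (0.27). Of 4207 genes with enough counts in this class, 9.15% were higher and 8.56% lower, and of the 9 genes 2 were higher and 1 lower. The lower one, Nr3c1 at -0.79, had an interval that included 0.

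In basal cells 8 of the 9 genes lay within 1.5-fold, where 6.44% of 12208 genes were lower and 6.05% higher. Prlr was the exception at -0.75 (-1.28 to -0.21), from 61 UMIs in Ehf_KO and 63 in WT, and with free RNA subtracted this turned to 2.04, so no direction is given. Socs1, the member most abundant in basal cells relative to other classes, was at 0.43 from 1151 UMIs in Ehf_KO and 526 in WT. Cish was at -0.21 from 1227 UMIs in Ehf_KO and 872 in WT, and Socs2 at 0.25 from 990 UMIs in Ehf_KO and 513 in WT.

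**Figure D2:**
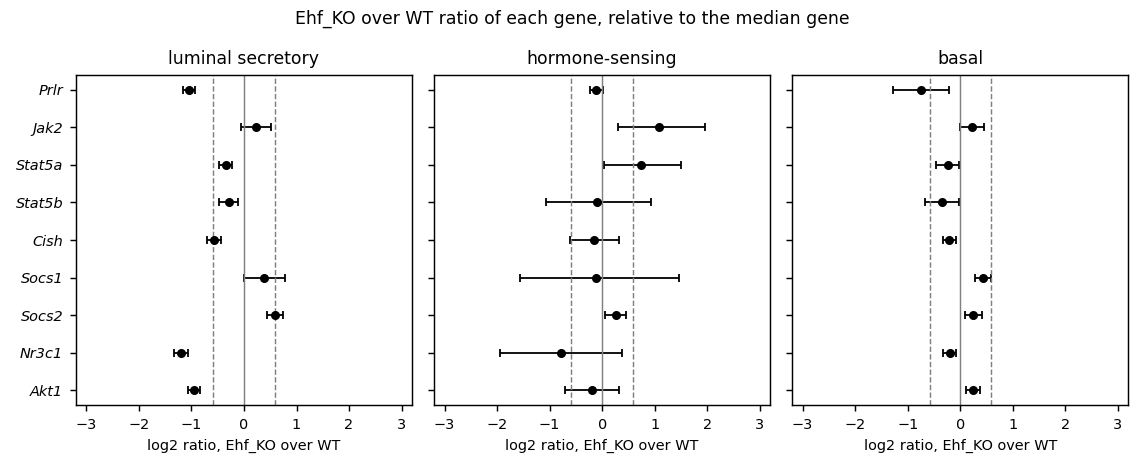
Log2 ratio of each gene, Ehf_KO over WT and relative to the median gene, in each epithelial class, with 95% counting intervals and dashed lines at 1.5-fold. Prlr, Nr3c1 and Akt1 lie left of the dashed line in luminal secretory cells, where Socs2 lies on the right one, and most intervals in hormone-sensing cells cross 0.

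Luminal secretory cells were next binned by the share of their UMIs that came from the 5 casein genes, a measure of how far a cell had gone in milk protein expression and one that uses none of the 9 genes. The bins under 2%, 2 to 5%, 5 to 10%, 10 to 20% and 20% and over held 304, 146, 159, 141 and 59 Ehf_KO cells and 66, 49, 85, 368 and 1989 WT cells. Prlr was flat across them in Ehf_KO, at 71.6, 69.5, 77.5, 76.8 and 77.6 CPM from the lowest bin to the highest. In WT it was at 28.4, 165, 80.1, 97.4 and 130 CPM, where the lowest bin held 9 UMIs and the second 33. The highest bin over the lowest was at a log2 ratio of 0.38 (-0.06 to 0.80) in Ehf_KO and 2.45 (1.52 to 3.58) in WT. The WT lowest bin also held more basal marker counts, 2026 CPM against 787 CPM in the Ehf_KO bin. Its part in the ratio was not tested as a whole, and without cells rich in basal or hormone-sensing markers the WT ratio was 2.32.

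Stat5a was higher in the casein-rich cells of both libraries, with overlapping intervals and only 10 UMIs in the lowest WT bin. From the lowest bin to the highest it was at 61.5, 82.0, 76.5, 75.1 and 88.1 CPM in Ehf_KO and at 31.5, 25.1, 43.1, 72.9 and 79.9 CPM in WT. The highest bin over the lowest gave a log2 ratio of 0.79 (0.36 to 1.20) in Ehf_KO and 1.59 (0.71 to 2.66) in WT. Stat5b gave 0.66 (0.00 to 1.28) in Ehf_KO and 1.38 (0.14 to 3.00) in WT. On CPM of all UMIs, where caseins weigh on the total, the Ehf_KO values turned to -0.03 for Stat5a and -0.16 for Stat5b.

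Cish and Socs2 did not follow the same course. Cish was at 51.7, 54.9, 55.5, 64.3 and 85.5 CPM in Ehf_KO, and the highest bin over the lowest gave 0.99 (0.55 to 1.42). In WT it was at 97.7, 65.2, 78.0, 73.9 and 68.3 CPM, a ratio of -0.27 (-0.78 to 0.30). Socs2 was at 67.0, 82.0, 69.5, 72.6 and 44.7 CPM in Ehf_KO, a ratio of -0.32 (-0.88 to 0.21), and at 37.8, 40.1, 26.7, 33.9 and 39.0 CPM in WT, a ratio of 0.29 (-0.52 to 1.26). The lowest casein cells thus held the lowest Cish level in Ehf_KO and the highest in WT, where it rests on 31 UMIs. Whether the slopes differ between the genotypes was not tested.

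Nr3c1 and Akt1 were higher in the casein-rich cells of both libraries, and Socs1 was lower there. The highest bin over the lowest was at 1.03 (0.54 to 1.5) in Ehf_KO and 1.12 (0.44 to 1.91) in WT for Nr3c1, and at 0.97 (0.59 to 1.34) in Ehf_KO and 1.33 (0.72 to 2.03) in WT for Akt1. Socs1 was at -1.08 in Ehf_KO and -1.27 in WT, with intervals that included 0. Jak2 was at -1.33 (-3.01 to -0.03) in Ehf_KO on 5 UMIs in the highest bin, and at 1.00 in WT on 2 UMIs in the lowest bin. Between these bins 5 of the 9 genes were at least 1.5-fold higher and 2 lower in Ehf_KO, where 21.6% of 6823 genes were higher and 21.2% lower. In WT 6 were higher and 1 lower, where 29.2% of 9440 genes were higher and 27.9% lower. On CPM of all UMIs those counts of higher genes came to 0 in Ehf_KO and 2 in WT.

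**Figure D3:**
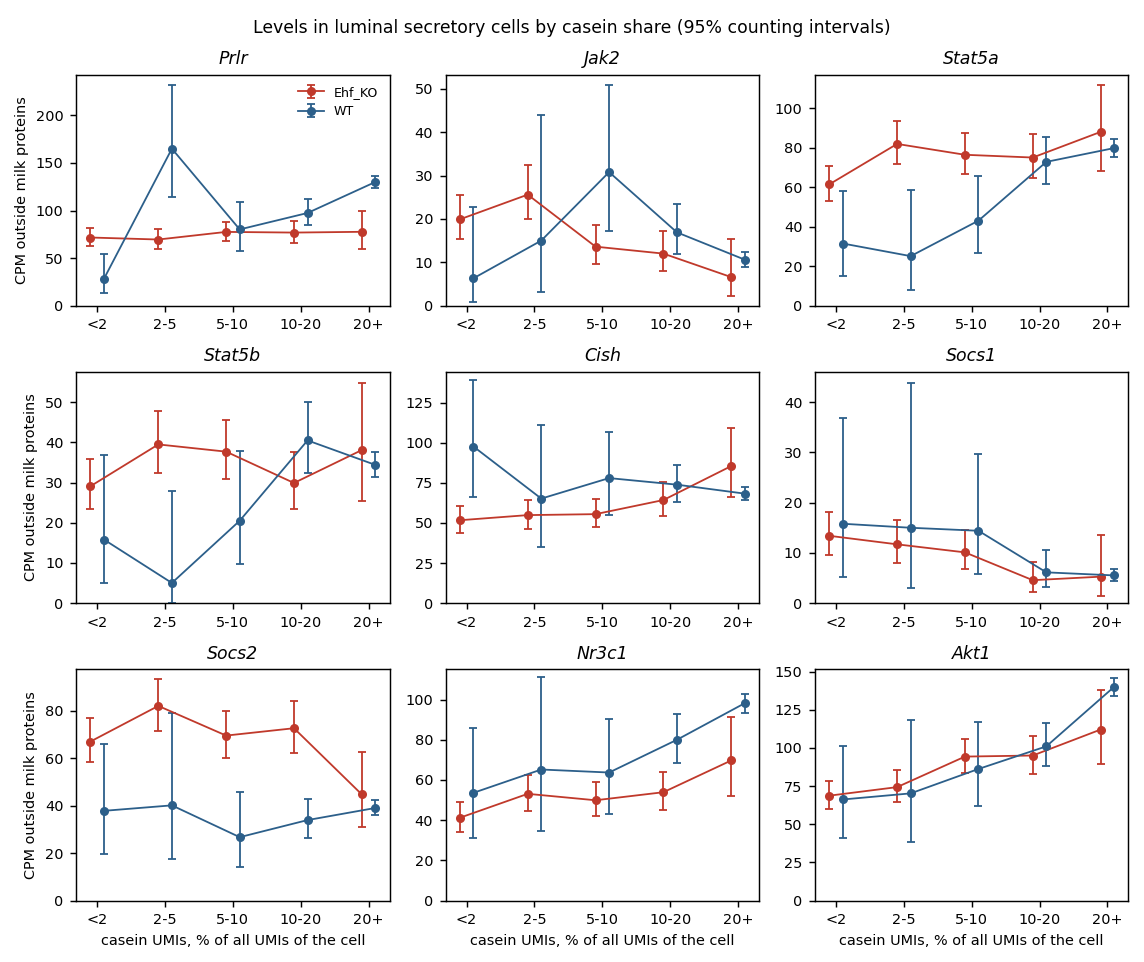
Levels of the 9 genes in luminal secretory cells against the casein share of the cell, in CPM outside milk protein genes with 95% counting intervals, for Ehf_KO (red) and WT (blue). Prlr stays between 69.5 and 77.6 CPM in Ehf_KO, Socs2 lies above WT in every bin, and WT intervals are wide in the bins of 66, 49 and 85 cells.

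At like casein share the genotypes were set side by side in the 4 bins with at least 50 cells in each library, which left out the bin of 2 to 5%. Casein share is itself an outcome that differed between the libraries, so cells of like share need not be alike otherwise. Socs2 was higher in Ehf_KO in the middle of the range, at a log2 ratio of 1.32 (0.51 to 2.26) in the bin of 5 to 10% from 199 UMIs in Ehf_KO and 13 in WT, and at 1.06 (0.65 to 1.47) in the bin of 10 to 20% from 175 UMIs in Ehf_KO and 72 in WT. In the lowest bin it was at 0.70 and in the highest at 0.14, with intervals that included 0. Prlr was higher in Ehf_KO in the lowest bin and lower in the highest, with log2 ratios along the bins of 1.21 (0.26 to 2.36), -0.11 (-0.60 to 0.42), -0.39 (-0.68 to -0.09) and -0.81 (-1.21 to -0.43). The lower level of the whole class was thus not seen in the bins under 2% and of 5 to 10%. Those bins held 9 and 39 Prlr UMIs in WT. The bin of 2 to 5%, left out here, held 190 Prlr UMIs in Ehf_KO and 33 in WT. Prlr stood at 69.5 CPM (60 to 80.2) in Ehf_KO and 165 CPM (114 to 232) in WT there, on 49 WT cells, so no direction is given. Thinned shares of cells with a Prlr UMI were 9.42% in Ehf_KO (5.11 to 15.6%) and 13.2% in WT (4.41 to 28.1%), with intervals that overlapped. Hormone-sensing markers in that bin summed to 124 CPM in Ehf_KO and 241 CPM in WT, and their part was not tested. In the highest bin Prlr stood at 77.6 CPM in Ehf_KO and 130 CPM in WT, at median casein shares of 24.6% in Ehf_KO and 28.0% in WT.

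Nr3c1 and Akt1 lay nearer to WT at like casein share than over the whole class. Nr3c1 was below WT in all 4 bins, at -0.50, -0.41, -0.61 and -0.55 from the lowest bin to the highest, past the rule only in the bin of 10 to 20%. Its intervals included 0 in the bins under 2% and of 5 to 10%, on 17 and 31 WT UMIs. Akt1 was at -0.07, 0.07, -0.13 and -0.39, within 1.5-fold throughout. Cish was at -1.04, -0.55, -0.24 and 0.26, past the rule only in the lowest bin. Stat5a was at 0.84 and 0.77 in the 2 lower bins, the second of which turned to -0.05 with each cell given equal weight, and Stat5a came to 0.08 in the highest bin. Of the 9 genes, 1 was lower and 5 higher in the lowest bin, where 16.9% of all genes were lower and 18.8% higher. Of those 5, Jak2 (on 2 WT UMIs), Stat5a, Stat5b and Socs2 had intervals that included 0. The counts were 1 and 3 in the bin of 5 to 10% (13.2% and 14.2% of all genes), 1 and 1 in the bin of 10 to 20% (11.0% and 9.78%), and 2 and 0 in the highest (15.9% and 13.7%). Over the 4 bins this made 5 lower and 9 higher calls, against 10 lower and 6 higher with each cell given equal weight.

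A second way to set feedback against signal needs no scaling: the UMIs of a feedback gene per 100 UMIs of the receptor or STAT gene in the same cells. In luminal secretory cells there were 95.7 Socs2 UMIs per 100 Prlr UMIs in Ehf_KO (86.9 to 105) and 30.8 in WT (28.2 to 33.6). Per 100 Stat5a UMIs there were 95.2 Socs2 UMIs in Ehf_KO (86.5 to 105) and 49.7 in WT (45.3 to 54.5). Socs2 was thus more abundant relative to both upstream genes in Ehf_KO, by more than the counting error. Cish differed otherwise, with 78.5 per 100 Prlr UMIs in Ehf_KO (70.9 to 86.9) and 56.4 in WT (52.6 to 60.5). Per 100 Stat5a UMIs the order was reversed, with 78.2 Cish UMIs in Ehf_KO (70.6 to 86.5) and 91.0 in WT (84.2 to 98.3). The ends of these last intervals overlap, which does not make the 2 values alike. In hormone-sensing cells Socs2 per 100 Prlr UMIs came to 39.3 in Ehf_KO (35.8 to 43.1) and 30.5 in WT (26.6 to 34.9), and Cish to 6.73 in Ehf_KO and 6.90 in WT with intervals that overlapped. Hormone-sensing markers were not higher in Ehf_KO luminal secretory cells (97.0 CPM) than in WT ones (118 CPM), but in the bin under 2% casein they were, at 157 CPM in Ehf_KO and 104 CPM in WT, and their part in the ratios was not tested.

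Socs2 UMIs per Prlr UMI were higher in Ehf_KO in every bin from 2% casein upwards, with 8 WT Socs2 UMIs in the bin of 2 to 5%. In the highest bin the Socs2 level itself did not differ, at a log2 ratio of 0.14 (-0.41 to 0.64). Prlr, the divisor, was at -0.81 (-1.21 to -0.43) there. From the lowest bin to the highest there were 93.6, 118, 89.6, 94.6 and 57.6 Socs2 UMIs per 100 Prlr UMIs in Ehf_KO and 133, 24.2, 33.3, 34.8 and 30 in WT. The intervals of the libraries overlapped in the lowest bin alone, where the WT value rests on 12 Socs2 and 9 Prlr UMIs. Against Stat5a the direction was not the same in all bins, WT being above Ehf_KO in the 2 lowest, with 109, 100, 90.9, 96.7 and 50.7 Socs2 UMIs per 100 in Ehf_KO and 120, 160, 61.9, 46.5 and 48.9 in WT, and the intervals were apart only in the bin of 10 to 20%. Cish per 100 Stat5a UMIs was at 84.0, 67.0, 72.6, 85.6 and 97.0 in Ehf_KO and at 310, 260, 181, 101 and 85.4 in WT. The WT value was thus highest in the cells with the least casein, on 31 Cish and 10 Stat5a UMIs.

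**Figure D4:**
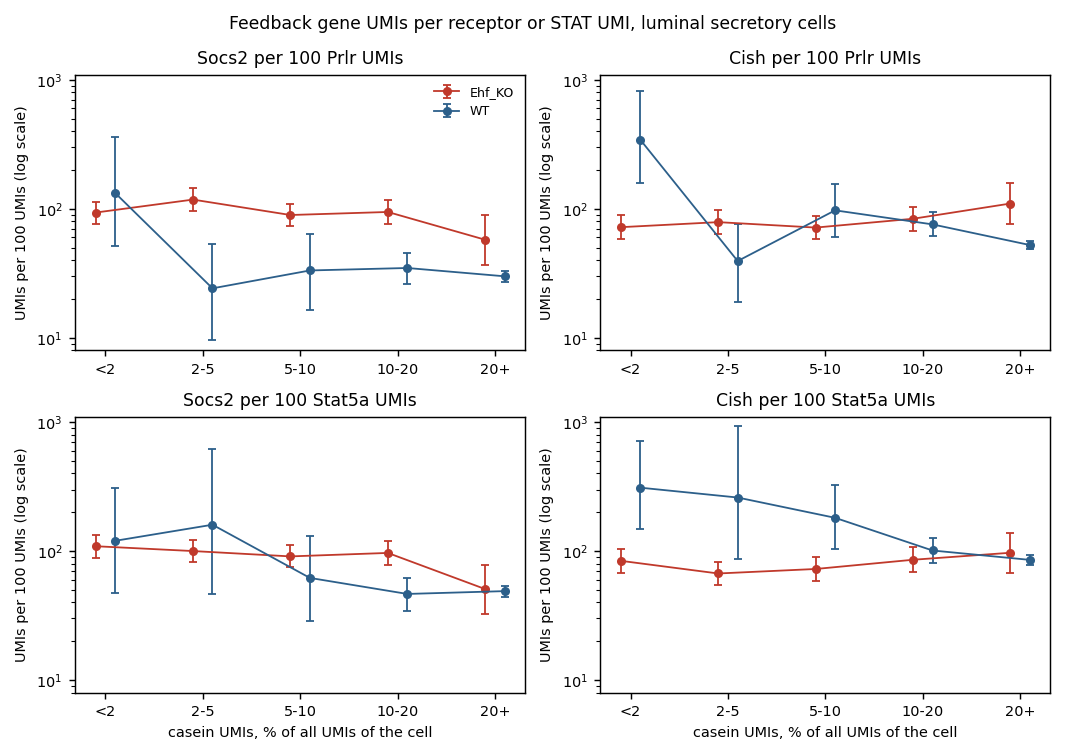
UMIs of Socs2 (left) and Cish (right) per 100 UMIs of Prlr (top) and Stat5a (bottom) in luminal secretory cells by casein share, on a log scale with 95% counting intervals, for Ehf_KO (red) and WT (blue). Socs2 per Prlr lies at 57.6 to 118 in Ehf_KO and at 24.2 to 34.8 in the 4 WT bins above 2% casein, and Cish per Stat5a in WT is highest at low casein.

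Cell by cell, the feedback genes were seen about as often in cells with a receptor or STAT UMI as in cells without one. In luminal secretory cells thinned to 2000 UMIs, Cish was detected in 10.8% of Ehf_KO cells with a Prlr UMI (5.51 to 18.5%) and 10.1% of those without (7.90 to 12.6%), and in 14.1% (11.1 to 17.4%) and 11.7% (10.3 to 13.3%) of WT cells. With Stat5a the Cish shares were 11.0% and 10.0% in Ehf_KO and 13.6% and 12.0% in WT. Socs2 was detected in 13.7% of Ehf_KO cells with a Prlr UMI (7.71 to 22.0%) and 9.32% of those without (7.24 to 11.8%), and in 6.63% and 7.07% of WT cells. All these intervals overlapped, so no link within cells was detectable at this depth.

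The 2 libraries filled different clusters of the luminal secretory class, and the genes were also compared within each. The alveolar cluster, led by Csn1s2a, Spp1 and Lalba, held 81 Ehf_KO and 1899 WT cells. The cluster led by Fcgbp, Plet1 and Kit held 481 Ehf_KO and 307 WT cells, and the cluster in which 99.6% of Ehf_KO and 98.3% of WT cells were cycling held 247 Ehf_KO and 351 WT cells. Prlr was at -1.11 (-1.55 to -0.71) in the alveolar cluster, -0.15 (-0.44 to 0.14) in the Kit cluster and -0.99 (-1.18 to -0.80) in the cycling one. Socs2 was at 0.35 (-0.16 to 0.82), 1.07 (0.62 to 1.53) and 0.52 (0.28 to 0.76) in the same order. Caseins took 22.5% of UMIs in Ehf_KO and 28.8% in WT in the alveolar cluster, 5.72% in Ehf_KO and 10.4% in WT in the Kit cluster, and 7.11% in Ehf_KO and 28.6% in WT in the cycling one, and the part of this gap in the ratios was not tested. Prlr was lower past 1.5-fold in the alveolar and cycling clusters, and Socs2 was higher past it in the Kit cluster, where it stood at 64.7 CPM in Ehf_KO and 30.3 CPM in WT. Prlr, Nr3c1 and Akt1 were lower in both the alveolar cluster (17.0% of all genes lower, 14.0% higher) and the cycling cluster (15.2% and 12.6%), with no member higher. In the Kit cluster none was lower and only Socs2 was higher, against 9.95% and 9.41% of all genes. Socs2 per 100 Prlr UMIs was above WT in each: 76.5 in Ehf_KO and 27.8 in WT in the alveolar cluster, 82.2 in Ehf_KO and 35.3 in WT in the Kit cluster, and 111 in Ehf_KO and 38.9 in WT in the cycling cluster. Per 100 Stat5a UMIs the alveolar cluster was nearly level, at 50 in Ehf_KO (33.1 to 74.3) and 46.2 in WT (41.1 to 51.8). The same ratio was 100 in Ehf_KO and 59.3 in WT in the Kit cluster. In the cycling cluster it was 99.2 in Ehf_KO and 56.9 in WT.

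Across the 9 profiles of casein bin and library with at least 50 cells, the genes closest to Prlr among 5603 ranked genes were Kif21a (Pearson r = 0.99), Mmgt1 (0.98) and Ccng1 (0.98). Among the genes closest to Stat5a were Lamtor1 (0.98) and Eif2b5 (0.97), and its neighbour Stat5b was at 0.96. Socs2 was closest to Eif1ad (0.98), Pals2 (0.96) and Psmd13 (0.96), and Cish to Smpdl3a (0.95), Cpsf3 (0.93) and Mlph (0.91). Cish and Socs2, the 2 STAT5 feedback genes, ran against each other at -0.75, and Prlr was at -0.41 with Cish and -0.04 with Socs2. These values describe 9 points that share 2 libraries, their depth and their casein order, and many genes reach such values over so few points.

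Of 95 other genes of the pathway in 7 lists, 80 had at least 50 UMIs over both libraries in luminal secretory cells. Of these 17 were lower and 8 higher in Ehf_KO, with a median log2 ratio of -0.13 beside -0.35 for the 9 genes, and the 2 or 3 with the greatest difference in each list are named. Among all genes of this class 17.9% were lower and 15.1% higher, so these counts are near the background, and nothing is read from the counts of single lists either. Among receptors of related hormones Ghr, the growth hormone receptor, had 183 UMIs in Ehf_KO and 749 in WT, a log2 ratio of -1.75 (-1.99 to -1.51), and Insr, the insulin receptor, was at -1.04 (-1.35 to -0.73). Igf1r, the receptor of insulin-like growth factor, was at 0.93 (0.59 to 1.26) over the class but at -1.53 (-2.28 to -0.72) in the bin under 2% casein. The insulin receptor substrates Irs1 and Irs2 were at -1.25 (-1.53 to -0.98) and -0.99 (-1.15 to -0.83). On CPM of all UMIs the median gene stood at 0.86, so the sign of genes between -0.86 and 0 would turn, Elf5, Gata3 and Cav1 below among them. No prolactin transcript was counted in either library's luminal secretory, hormone-sensing or basal cells, where a count of 3 in luminal secretory cells would be 0.254 CPM in Ehf_KO and 0.168 CPM in WT.

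Of 11 measured partners and targets of the glucocorticoid receptor 4 were lower and 1 higher (17.9% and 15.1% of all genes), with a median of -0.40. Sgk1, a kinase induced by glucocorticoids, had 1747 UMIs in Ehf_KO and 6167 in WT, a log2 ratio of -1.53 (-1.61 to -1.45). Fkbp5, a chaperone of the receptor that it also induces, was at -1.37 (-1.52 to -1.22), and the phosphatase Dusp1 at -1.13 (-1.18 to -1.08). Sgk1 was level between genotypes in the lowest casein bin, at 207 CPM in Ehf_KO and 189 CPM in WT, and furthest apart in the highest, at 93.4 CPM in Ehf_KO and 379 CPM in WT. In basal cells Sgk1 was at 0.02 and Fkbp5 at 0.44, and in hormone-sensing cells Fkbp5 was at 0.81 (0.19 to 1.46) and Sgk1 at -0.52 (-0.85 to -0.20). The medium in which the glands of both libraries were dissociated held hydrocortisone, insulin and epidermal growth factor, and its part in these levels was not tested.

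Among STAT5 partners Elf5, the ETS factor that drives alveolar fate, was at -0.83 (-0.89 to -0.77) and Gata3 at -0.71 (-0.80 to -0.62), while Ezh2, a histone methyltransferase, was at 0.41. Elf5 did not differ past 1.5-fold at like casein share, at 0.32, 0.49, -0.05 and -0.10 from the lowest bin to the highest. Ccnd1, the cyclin D1 gene, stood apart among STAT5 targets outside milk, at 766 CPM in Ehf_KO and 155 CPM in WT and a log2 ratio of 2.00 (1.94 to 2.07). It was higher in Ehf_KO in all 4 bins, at 0.71, 0.79, 1.32 and 0.63. Cycling cells were 34.9, 51.6, 46.8 and 27.1% of Ehf_KO cells in these bins and 9.09, 27.1, 15.2 and 18.4% of WT cells. The part of this gap in the Ccnd1 values was not tested. Tnfrsf11a, the receptor of RANKL, was at -1.29 (-1.54 to -1.04) and the survival gene Bcl2l1 at 0.80 (0.53 to 1.07). Of other brakes on the pathway Socs3 was at -1.15 (-1.31 to -0.98), Cav1 at -0.76 and Socs5 at 0.79 (0.46 to 1.11), and 2 of 14 were lower and 1 higher (17.9% and 15.1% of all genes). Of other JAKs and STATs only Stat2, at -1.11 (-1.52 to -0.71), passed the rule, with Jak3 at -0.47.

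**Figure D5:**
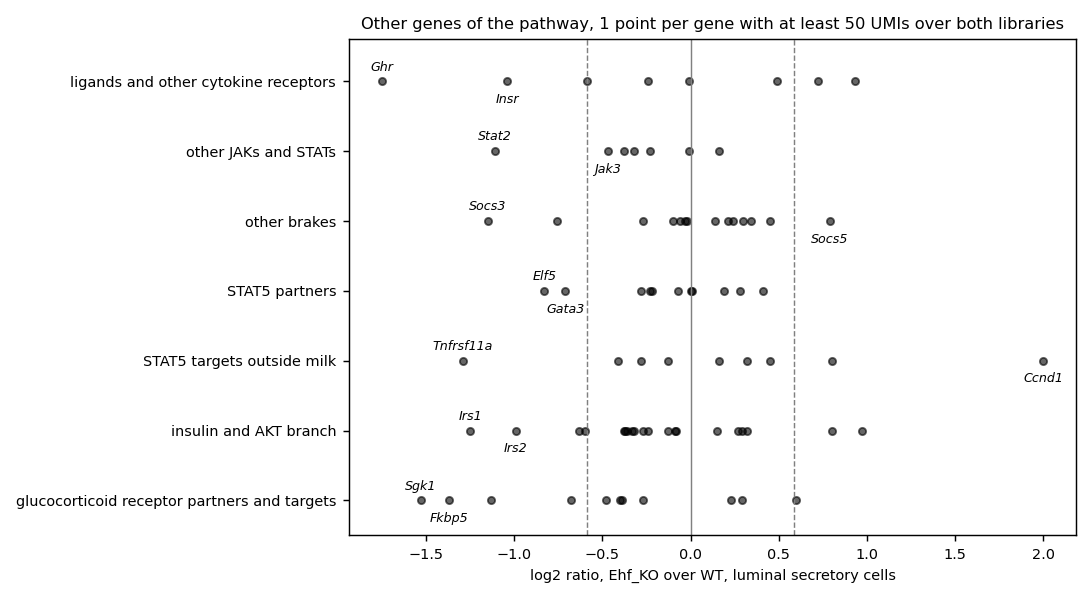
Log2 ratio, Ehf_KO over WT, of the 80 measured pathway genes in luminal secretory cells, 1 point per gene in 7 lists, with dashed lines at 1.5-fold and the 2 genes furthest from 0 named in each list. Ccnd1 at 2.00 and Ghr at -1.75 mark the ends of the range.

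In hormone-sensing cells, 42 of the 95 genes had enough counts, and 4 were lower and 6 higher, where 8.56% of all genes were lower and 9.15% higher. Tnfsf11, which encodes RANKL, the signal that these cells send to their neighbours under progesterone and prolactin, had 346 UMIs in Ehf_KO and 61 in WT, a log2 ratio of 1.62 (1.22 to 2.03). Cdkn1a was at 1.28 (0.57 to 2.06) and Id2 at 1.18 (0.16 to 2.34), while the brakes Ptpn11 and Socs3 were at -0.93 (-1.69 to -0.17) and -0.89 (-1.31 to -0.47). In basal cells 6 of 80 were lower and 3 higher, near the 6.44% and 6.05% of all genes. The libraries filled different basal clusters, the 3 with most cells holding 109, 2400 and 221 Ehf_KO cells and 2685, 244 and 1500 WT cells, and the part of this in the basal values was not tested. Cebpb, a factor that acts with STAT5 at milk genes, was at 1.43 (1.38 to 1.47), Ccnd1 at 0.94 (0.86 to 1.03) and Elf5 at -1.59 (-1.94 to -1.26), the last on 113 UMIs in Ehf_KO and 210 in WT. Luminal secretory markers in basal cells summed to 2490 CPM in Ehf_KO and 8919 CPM in WT, with caseins at 0.101% of UMIs in Ehf_KO and 1.08% in WT, and their part in the Elf5 value was not tested.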

How the data were processed

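The authors deposited UMI counts per gene and cell barcode, 1 matrix for each library, which the labels' protocols describe as 10x Chromium 3' V3 libraries of sorted cells. GRCm38, mm10 and Seurat 4.0.4 are named per the submitters' processing notes. The aligner, counter and strand setting were not given in the sources used here. Cells were kept from 500 genes and 1000 UMIs upwards, with mitochondrial UMIs up to 20%. Scrublet scores above 0.379, the automatic threshold of WT, marked 38 Ehf_KO and 122 WT cells as doublets, since the threshold of the Ehf_KO library itself (0.621) marked none, and these cells were left out. Features without a symbol held 1.74% of UMIs in Ehf_KO and 1.36% in WT.

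Cells were clustered with scanpy 1.11.5 and leidenalg 0.10.2 in Python 3.11.15 (2000 variable genes, 30 components, 20 neighbours, resolution 1). Left out were the 9 genes, the pathway lists, features without a symbol, and milk protein, milk fat and lipid, mitochondrial and ribosomal genes. Some genes left out, Plin2, Btn1a1 and Xdh among them, still served as markers for naming. A cluster was named by the mean log2 fold of its 5 highest markers, at least 0.3, with at least 3 markers detected and more of its own than of other markers among its leading genes. This scoring was set after another had left the cluster rich in Kit unnamed. A cluster with endothelial and myeloid genes stayed unnamed and was pooled with fibroblast-like and pericyte-like cells as non-epithelial.

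Levels are summed UMIs as CPM outside 12 milk protein genes, with exact Poisson intervals. Ratios are centred on the median gene, taken over genes whose UMIs in the 2 libraries summed to 50 or more, and intervals of ratios and shares are exact (Clopper-Pearson). The shares of all genes past 1.5-fold cover genes with 50 or more UMIs over the 2 groups compared, while the 9 genes were counted at any depth. Shares of cells were taken after thinning each cell to 2000 UMIs outside milk genes. Levels of different genes were not compared, since 3' counts are not per length. In data simulated for the luminal secretory comparison over 11121 genes, with 200 changed 2-fold, medians of 1.01 and -1.01 were recovered and 95.9% of intervals held the true value. The simulated libraries shared a common profile apart from the changed genes and held counting error only. This checked the calculation, not how it fares on the unlike libraries compared here. All 9 genes were described, with the 3 genes of greatest ratio in each pathway list and the 3 closest in pattern, except for a few genes that are not reported here. The genes and lists were chosen with earlier results of these data known. Gene positions are from GENCODE M21 on GRCm38.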

Additional observations from a re-analysis of the deposited data

How the results depend on the processing

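No paired analysis was possible because there was 1 library per genotype. On CPM of all UMIs, in luminal secretory cells 0 members were lower past 1.5-fold in Ehf_KO (3 as reported) and 3 higher (1 as reported). From the lowest to the highest casein bin on that scale 0 were higher in Ehf_KO (5 as reported), with Stat5a at -0.03 and Stat5b at -0.16, and in WT 2 were higher (6) and 3 lower (1). Over the 4 matched bins 2 were lower (5). On CPM outside milk genes without centring, 2 were higher in luminal secretory cells and 3 along the Ehf_KO bins. The single higher member, Socs2, missed the rule, leaving 0, with the median taken over genes with at least 10 UMIs or with 1 UMI in each library, with equal weight per cell, without cycling cells, with a stricter cell filter, and, both chosen after seeing the data, without marker-rich luminal cells and in cells with at least 4000 UMIs outside milk genes. Its log2 ratio was then 0.40 to 0.58. With equal weight per cell 10 were lower over the matched bins, and Stat5a in the bin of 5 to 10% came to -0.05. With free RNA subtracted basal Prlr came to 2.04. The cause of these changes was not tested beyond the construction of each alternative.

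Of single log2 ratios in classes, 321 stayed within their interval, 29 moved beyond it and 1 that had passed 1.5-fold changed sign, and in casein bins 426, 12 and 3. Shares of cells depend on depth: 45 of 54 moved without thinning and 45 with thinning to 1000 UMIs. Without cycling cells the highest bin and the Ehf_KO trend, and with at least 4000 UMIs the bins of under 2% and 5 to 10% and the WT trend, had too few cells for a value. Counts over matched bins were also not given for bins by the share of all milk protein genes, which compare other bins. The WT bins under 10% casein hold 66, 49 and 85 cells, and few UMIs of most members.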
